A study of Mus musculus with 4 samples.

Results

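The 31 genes described here are active in the endothelial cells that line blood and lymphatic vessels. They were taken as a named list, chosen with earlier results of these data known, and looked up by symbol in the deposited count tables. There, all 31 were found among 23284 genes. All 31 also had enough counts to be tested, among 15645 genes. The counts came from RNA of Osr1+ cells, sorted by FACS from the limbs of C57BL/6J mouse embryos at E13.5. The GCE allele places a GFP and a tamoxifen-inducible Cre in the *Osr1* locus and disrupts the gene, so GFP marks cells in which the locus is active. The 2 GCE/+ embryos carried the allele once and were the controls, and the 2 GCE/GCE embryos carried it on both chromosomes and lacked functional *Osr1*. All 4 samples therefore carried at least 1 GCE allele, and wild-type limbs were not analysed here. Each sample was 1 embryo, and live cells were gated on propidium iodide and GFP, with no antibody against an endothelial or blood cell antigen named for this sort. The submitters describe the sorted cells as mesenchymal.

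Endothelial cells form a sheet that is sealed by junction proteins and steered by receptors for growth factors. Vascular endothelial growth factors act on the kinases *Flt1*, *Kdr* and *Flt4*, angiopoietins act on *Tek* with *Tie1* beside it, and BMP9 acts on *Acvrl1* with its co-receptor *Eng*. Transcription factors of the ETS family (*Erg* and *Fli1*) and of the SOX family (*Sox7*, *Sox17* and *Sox18*) switch on many of the genes that define the cell type. In a growing limb, vessels run through the connective tissue in which *Osr1* is expressed.

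The total count of a sample was between 52121596 (GCE/+ replicate 2) and 61402140 (GCE/GCE replicate 2). Values are CPM, counts scaled to the size of the library after TMM normalization, where 3 counts correspond to 0.0489 to 0.0576 CPM and the 31 genes had 23 to 1818 counts in a sample. *Osr1* had 81.9 and 79.1 CPM in GCE/+ cells against 11.9 and 13.9 CPM in GCE/GCE cells. The quasi-likelihood test of edgeR, with p-values adjusted by Benjamini and Hochberg's method, gave it a log2 fold change of -2.64 with an SE of 0.11 (adjusted p = 5.94e-05). *Xist*, which is transcribed from the inactive X chromosome of females, had 1142 CPM in GCE/GCE replicate 1 against 2.63 CPM or less elsewhere, while the Y-linked *Ddx3y* had 0.172 CPM there and 182 to 214 CPM in the others. This sample was thus female and the other 3 were male, so sex was not balanced between the genotypes. *Pdgfra*, a receptor of mesenchymal cells, had 833 and 977 CPM in GCE/+ cells against 909 and 961 CPM in GCE/GCE cells.

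Transcripts of the 31 genes were detected in each sample, at low levels. Their mean over the 4 samples ranged from 0.509 CPM for *Sox17* to 25.4 CPM for *Fli1*, with a median of 5.53 CPM, against a median of 21.3 CPM over all tested genes. Together they held 0.0304% and 0.0251% of the counts in GCE/+ replicates 1 and 2 and 0.0252% and 0.0222% in GCE/GCE replicates 1 and 2. In these bulk samples, fewer cells of a type and less RNA per cell cannot be told apart.

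Per kilobase of transcript, *Egfl7* was highest in GCE/+ cells with 11.3 CPM per kb, followed by *Ramp2* with 9.06. *Egfl7* encodes a matrix factor that endothelial cells secrete, and *Ramp2* the accessory protein of the adrenomedullin receptor. *Fli1* with 6.79, *Erg* with 6.64 and *Eng* with 6.61 CPM per kb came next, ahead of the junction genes *Cdh5* with 5.46 and *Pecam1* with 4.99. *Tek* stood at 4.27 and *Tie1* at 2.12 CPM per kb, and the order ended with *Nos3* at 0.377, *Esm1* at 0.377 and *Sox17* at 0.218 CPM per kb. Of the 30 steps between neighbours in this order, 7 had all values of the upper gene above those of the lower in GCE/+ cells, and the other 23 neighbours did not differ beyond the spread of the 2 embryos. On the same scale *Pdgfra* had 170.1 CPM per kb in GCE/+ cells.

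**Figure D1:**
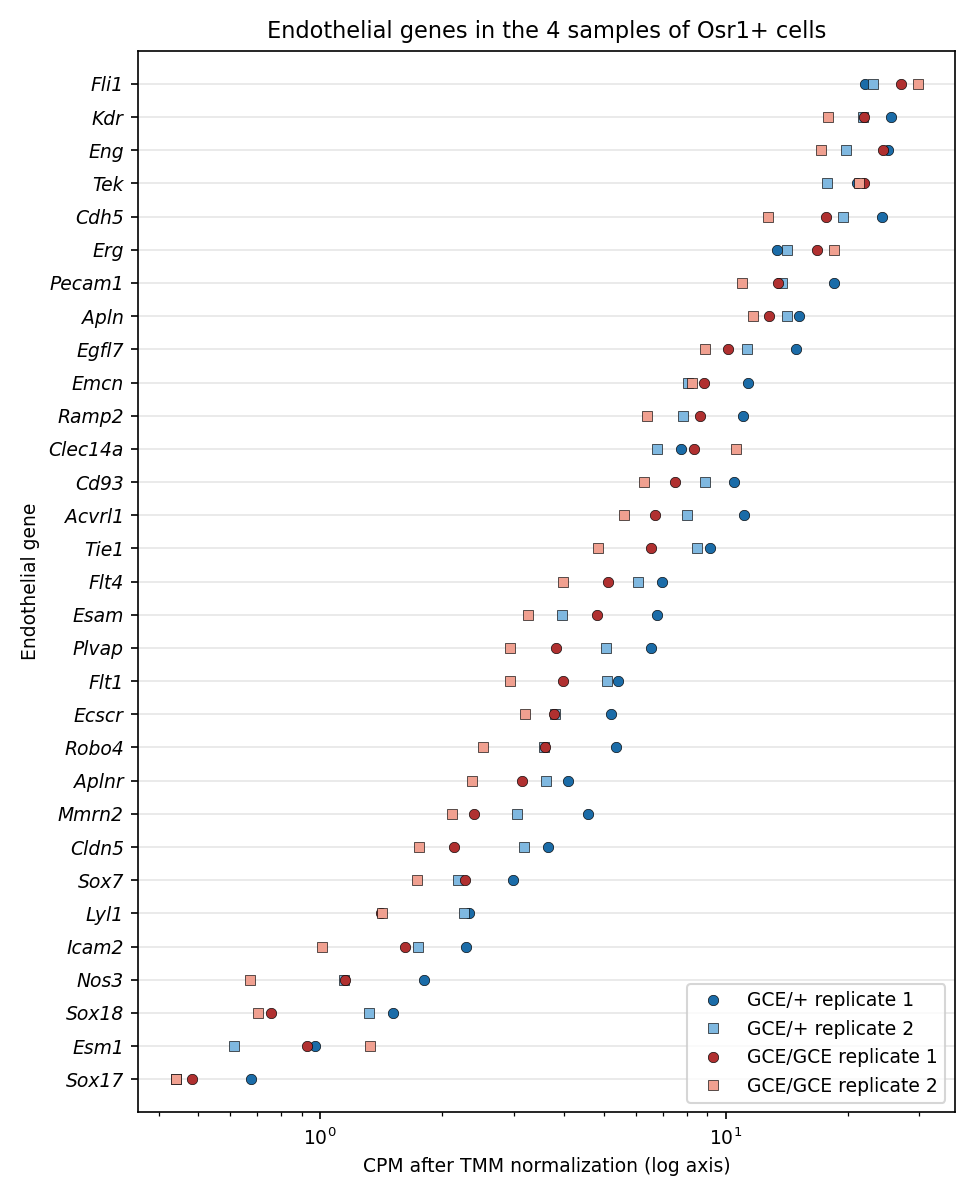
Level of each endothelial gene in CPM (log axis) in the 4 samples, with GCE/+ in blue, GCE/GCE in red, replicate 1 as circles and replicate 2 as squares. The dark blue circle of GCE/+ replicate 1 is highest for 26 genes and the light red square of GCE/GCE replicate 2 is lowest for 23, whereas *Fli1* and *Erg* run the other way.

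Comparison of GCE/GCE with GCE/+ cells asked whether loss of *Osr1* changes the transcripts of the sorted population. For the endothelial genes, 26 of 31 were lower in GCE/GCE cells and 5 were higher, against 49.1% of all tested genes that were lower. The median log2 fold change was -0.47, or 0.724 times the GCE/+ level, with quartiles of -0.63 and -0.26 and a range from -0.96 for *Sox18* to 0.50 for *Esm1*, while the median over all tested genes was 0.0033. None of the 31 genes reached an adjusted p under 0.1 in edgeR, where 1.82% of all tested genes passed, 145 lower and 140 higher. The lowest adjusted p was 0.131, for *Cldn5*. With DESeq2, 3 of the 31 passed, namely *Plvap* (adjusted p = 0.0663), *Tie1* (0.0852) and *Acvrl1* (0.0948), where 3.25% of all genes passed. At an unadjusted p under 0.05 in edgeR, 14 were lower and 3 higher, against 4.86% and 5.62% of all tested genes.

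Both GCE/GCE values lay below both GCE/+ values for 17 genes, a pattern that 19.1% of all tested genes showed. The reverse held for 4 genes, *Clec14a*, *Tek*, *Erg* and *Fli1*, and for 19.2% of all tested genes. For the other 10 the values of the genotypes overlapped. An exact permutation test of 2 against 2 samples cannot give a p below 0.33. The outcome changed with single embryos. Without GCE/GCE replicate 1, the female sample, 11 of the 31 genes passed in edgeR (*Pecam1*, *Cdh5*, *Cldn5*, *Plvap*, *Mmrn2*, *Robo4*, *Flt1*, *Flt4*, *Tie1*, *Acvrl1* and *Nos3*), with 4.7% of all genes passing, and without GCE/+ replicate 2, 7 passed, with 6.03% of all genes. Without GCE/+ replicate 1 or GCE/GCE replicate 2, none passed, and the median log2 fold change of the 31 genes was -0.23 or -0.30.

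**Figure D2:**
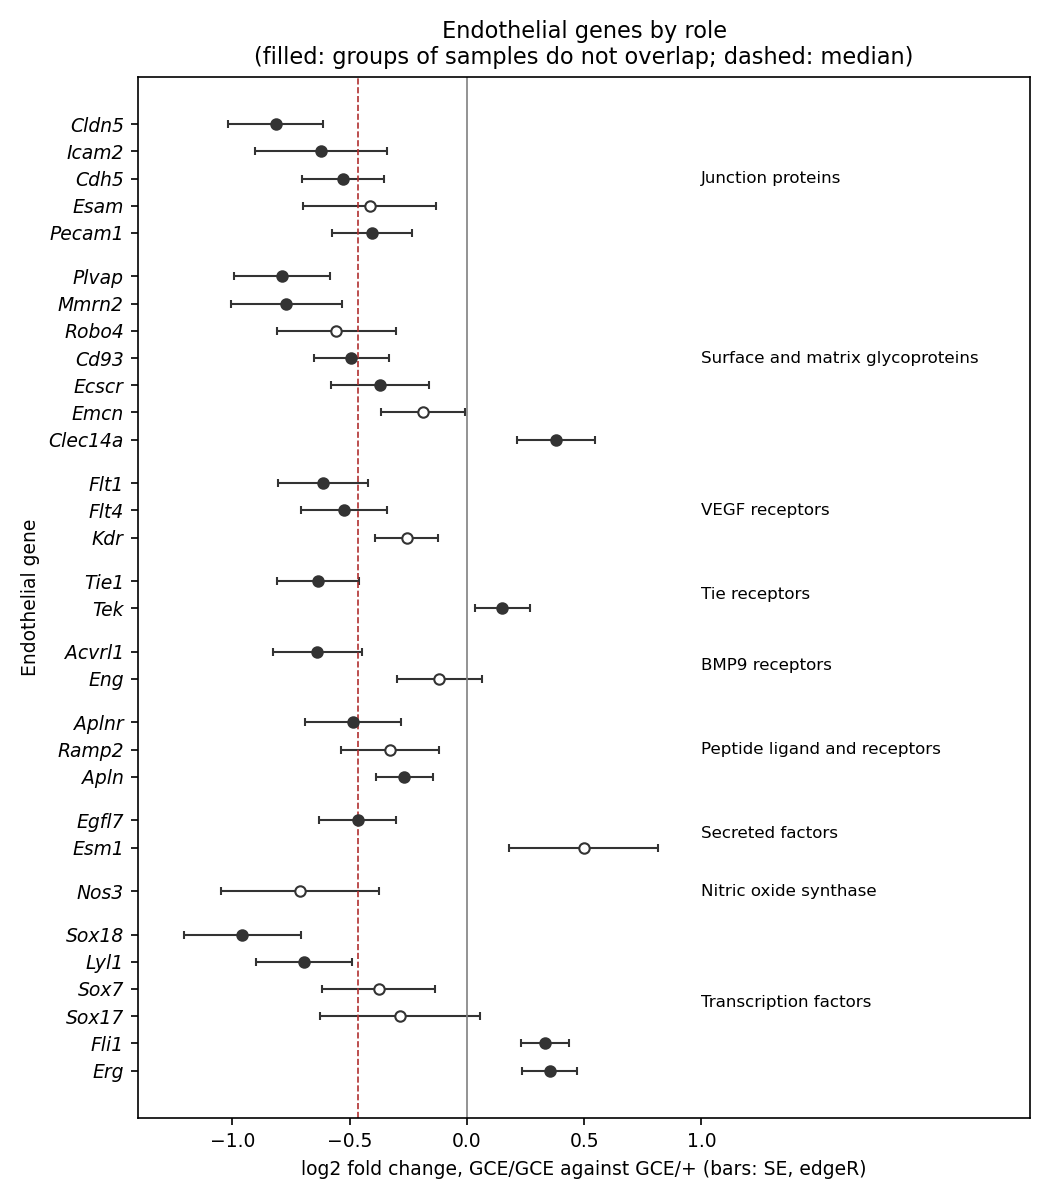
log2 fold change of each endothelial gene, GCE/GCE against GCE/+, with its SE from edgeR, grouped by the role of the gene product. Filled points are the 21 genes whose genotypes did not overlap and the dashed line is the median of -0.47, with *Clec14a*, *Tek*, *Esm1*, *Fli1* and *Erg* to the right of 0.

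The 5 junction genes were all lower in GCE/GCE cells, and none passed the test. *Cdh5*, which encodes the VE-cadherin of endothelial junctions, had 24.2 and 19.4 CPM in GCE/+ cells against 17.6 and 12.7 CPM in GCE/GCE cells (log2 fold change -0.53, SE 0.17, adjusted p = 0.275 in edgeR). *Pecam1*, the adhesion molecule CD31, had 18.5 and 13.8 CPM in GCE/+ cells against 13.45 and 10.9 CPM in GCE/GCE cells. The genotypes did not overlap for either gene, but for both the gap between GCE/+ replicate 2 and GCE/GCE replicate 1 was smaller than the gaps between embryos of 1 genotype. *Cldn5*, the claudin of endothelial tight junctions, had 3.65 and 3.17 CPM in GCE/+ cells against 2.14 and 1.75 CPM in GCE/GCE cells (log2 fold change -0.82, SE 0.20, adjusted p = 0.131 in edgeR). Here the genotypes were further apart than the embryos. The adhesion molecule *Icam2* was at 2.28 and 1.74 CPM against 1.62 and 1.01 CPM. *Esam* overlapped, with 6.77 and 3.94 CPM in GCE/+ cells against 4.82 and 3.25 CPM in GCE/GCE cells.

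Of 7 genes for surface and matrix glycoproteins, 6 were lower and *Clec14a* was higher. *Plvap*, which forms the diaphragms of endothelial fenestrae and caveolae, had 6.55 and 5.07 CPM in GCE/+ cells against 3.81 and 2.94 CPM in GCE/GCE cells (log2 fold change -0.79, SE 0.21, adjusted p = 0.147 in edgeR). *Mmrn2* encodes a matrix glycoprotein that binds *Clec14a* and *Cd93*, 2 related lectin-like receptors of the endothelial surface. *Mmrn2* had 4.58 and 3.06 CPM in GCE/+ cells against 2.39 and 2.11 CPM in GCE/GCE cells, and *Cd93* had 10.5 and 8.89 against 7.49 and 6.29 CPM. *Clec14a* went the other way, with 7.77 and 6.77 CPM in GCE/+ cells against 8.35 and 10.6 CPM in GCE/GCE cells (log2 fold change 0.38, SE 0.16, adjusted p = 0.472 in edgeR). For *Clec14a* too, the gap between the genotypes was smaller than the gaps between embryos of 1 genotype. Its highest value was in GCE/GCE replicate 2, the sample in which *Mmrn2* and *Cd93* were lowest. *Robo4*, a guidance receptor that stabilizes vessels, had log2 fold change -0.56 (SE 0.25). *Ecscr* and the sialomucin *Emcn* were at -0.37 (SE 0.21) and -0.19 (SE 0.18).

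The 3 VEGF receptor genes were lower in GCE/GCE cells without passing the test. *Kdr*, the main signalling receptor of VEGF-A, had 25.6 and 21.8 CPM in GCE/+ cells against 21.8 and 17.8 CPM in GCE/GCE cells (log2 fold change -0.26, SE 0.13, adjusted p = 0.607 in edgeR), and its genotypes overlapped. *Flt1*, a high-affinity receptor that also acts as a decoy, had 5.44 and 5.11 CPM in GCE/+ cells against 3.96 and 2.94 CPM in GCE/GCE cells (log2 fold change -0.61, SE 0.19). *Flt4*, the receptor of VEGF-C in lymphatic and sprouting vessels, had 6.96 and 6.08 against 5.12 and 3.97 CPM. For *Flt1* and *Flt4* both GCE/GCE values were below both GCE/+ values. For both genes the GCE/GCE embryos differed from each other beyond counting error and the GCE/+ embryos did not.

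The 2 Tie receptor genes differed in direction, although *Tek* rose by less than the GCE/+ embryos differed. *Tie1*, an orphan receptor that modulates *Tek*, had 9.13 and 8.49 CPM in GCE/+ cells against 6.53 and 4.84 CPM in GCE/GCE cells (log2 fold change -0.63, SE 0.18, adjusted p = 0.180 in edgeR). *Tek*, the angiopoietin receptor Tie2, had 21.1 and 17.8 CPM in GCE/+ cells against 21.9 and 21.3 CPM in GCE/GCE cells (log2 fold change 0.15, SE 0.12, adjusted p = 0.796 in edgeR). For *Tek* the gap between the genotypes was smaller than the gaps between embryos of 1 genotype. Its log2 fold change was 0.036 without GCE/+ replicate 2. The difference between the 2 genes was not tested. *Acvrl1*, the kinase that binds BMP9, had 11.1 and 8.03 CPM in GCE/+ cells against 6.70 and 5.60 CPM in GCE/GCE cells (log2 fold change -0.64, SE 0.19, adjusted p = 0.210 in edgeR). Its co-receptor *Eng* overlapped, with 25.2 and 19.8 against 24.4 and 17.1 CPM. *Eng*, or CD105, is also found on mesenchymal stromal cells.

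Among the genes of peptide signalling, the ligand *Apln* had 15.2 and 14.2 CPM in GCE/+ cells against 12.7 and 11.6 CPM in GCE/GCE cells (log2 fold change -0.27, SE 0.12). *Apln* lies on the X chromosome, and the female sample held the higher of the GCE/GCE values. Its receptor *Aplnr*, a receptor of sprouting vessels, had 4.09 and 3.60 against 3.14 and 2.37 CPM. Neither overlapped between genotypes, and *Ramp2* did (log2 fold change -0.33, SE 0.21). Of the secreted factors, *Egfl7* had 14.9 and 11.3 against 10.1 and 8.87 CPM (log2 fold change -0.47, SE 0.16). *Esm1*, a proteoglycan of endothelial tip cells, had 0.969 and 0.612 CPM in GCE/+ cells against 0.930 and 1.32 CPM in GCE/GCE cells (log2 fold change 0.50, SE 0.32). *Nos3*, the endothelial nitric oxide synthase, had 1.81 and 1.15 against 1.15 and 0.670 CPM. At these levels the SE of *Esm1* and *Nos3* (0.32 and 0.34) exceeded the median SE of 0.193 over the 31 genes.

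Of the 6 transcription factor genes, 4 were lower in GCE/GCE cells, *Erg* and *Fli1* were higher, and none passed the test. *Erg* had 13.4 and 14.2 CPM in GCE/+ cells against 16.7 and 18.4 CPM in GCE/GCE cells (log2 fold change 0.35, SE 0.12, adjusted p = 0.277 in edgeR). *Fli1* had 22.1 and 23.0 CPM in GCE/+ cells against 27.0 and 29.7 CPM in GCE/GCE cells (log2 fold change 0.33, SE 0.10, adjusted p = 0.233 in edgeR). Both ETS genes were higher in both GCE/GCE embryos, by more than the embryos of a genotype differed. *Erg* is also known from developing cartilage and joints, and *Fli1* from blood cells. Of the SOX genes, *Sox18* had 1.51 and 1.32 CPM in GCE/+ cells against 0.758 and 0.702 CPM in GCE/GCE cells (log2 fold change -0.96, SE 0.25, adjusted p = 0.148 in edgeR). Its relatives *Sox7* and *Sox17* had log2 fold changes of -0.38 (SE 0.24) and -0.29 (SE 0.34), with overlapping values. *Lyl1*, a basic helix-loop-helix factor of endothelial and blood cells, had 2.33 and 2.26 CPM against 1.41 and 1.42 CPM (log2 fold change -0.70, SE 0.21). Exons of *Lyl1*, *Eng* and *Nos3* overlap those of a neighbouring gene on the opposite strand (*Nfix*, *Fpgs* and *Atg9b*) in the GENCODE M21 annotation, and the library kit does not mark strand, so their counts are uncertain.

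The embryos of 1 genotype differed in these genes too, and in the same direction in both genotypes. Replicate 2 was below replicate 1 for 29 genes in GCE/+ cells and for 26 in GCE/GCE cells, and in both genotypes for 26 genes, a pattern that 24.3% of all tested genes showed. The labels do not say whether embryos with the same number were handled together. The reason for this shared direction was not tested. The median log2 ratio of replicate 2 to replicate 1 was -0.34 in GCE/+ cells and -0.29 in GCE/GCE cells, or 0.787 and 0.818 times, where the medians over all tested genes were -0.0020 and 0.00095. GCE/+ replicate 1 held the highest value of 26 genes (32.2% of all tested genes) and GCE/GCE replicate 2 the lowest value of 23 (25.1%), and these 23 were all among the 26.

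For single genes these ratios were compared with the exact binomial 95% interval, which covers counting error only. In each genotype 18 genes were lower in replicate 2 beyond this interval. *Cdh5* had a log2 ratio of -0.32 (interval -0.43 to -0.20) in GCE/+ cells and -0.48 (-0.61 to -0.34) in GCE/GCE cells, next to a genotype difference of -0.53. *Esam* had -0.78 (-1.03 to -0.54) and -0.57 (-0.84 to -0.30), next to a genotype difference of -0.41. For *Eng* the ratios were -0.34 (-0.46 to -0.23) and -0.51 (-0.63 to -0.39), and both were larger in size than its genotype difference of -0.12. No gene was higher in replicate 2 beyond the interval in GCE/+ cells and 3 were in GCE/GCE cells, namely *Clec14a* (0.34, interval 0.17 to 0.51), *Erg* (0.14, 0.015 to 0.26) and *Fli1* (0.14, 0.040 to 0.24). These 3 were also among the 4 genes that were higher in GCE/GCE cells without overlap. The median biological coefficient of variation of the endothelial genes in the edgeR fit was 0.142 against 0.0979 over all tested genes, which had the higher median level.

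**Figure D3:**
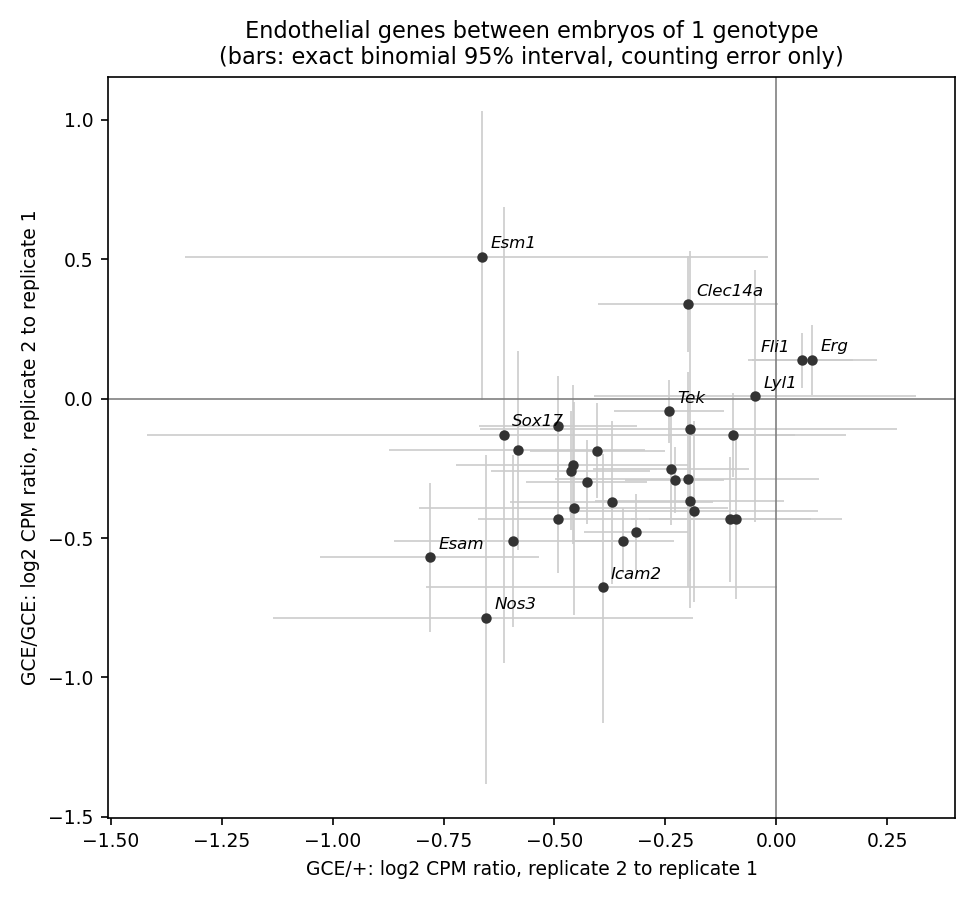
log2 CPM ratio of replicate 2 to replicate 1 for each endothelial gene, in GCE/+ embryos (x axis) and GCE/GCE embryos (y axis), with exact binomial 95% intervals for counting error. Most points lie to the lower left of both zero lines, and *Clec14a*, *Esm1*, *Fli1*, *Erg* and *Lyl1* lie above the horizontal line.

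Summed over the 31 genes, the level was 302 and 250.4 CPM in GCE/+ replicates 1 and 2 and 254 and 223 CPM in GCE/GCE replicates 1 and 2, so the genotypes overlapped. Without *Erg* and *Fli1* the sums were 267 and 213 CPM in GCE/+ cells against 210.0 and 175 CPM in GCE/GCE cells, which did not overlap, although GCE/+ replicate 2 and GCE/GCE replicate 1 were close. *Erg* and *Fli1* were left out of this sum after their values were seen. The 5 junction genes summed to 55.4 and 42.1 CPM in GCE/+ cells against 39.7 and 29.6 CPM in GCE/GCE cells. The 6 transcription factor genes summed to 43.0 and 43.3 CPM in GCE/+ cells against 48.7 and 52.4 CPM in GCE/GCE cells, a sum made up mostly of *Erg* and *Fli1*, while the other 4 genes were lower.

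Promoter sequences from RefSeq (GRCm38.p6), covering 250 bases before to 50 after a transcription start, were found for 15 of the 31 genes, 19 promoters in all. The genes shown were picked by their values in these data. Sequences are given for the Tie receptor genes, which differed in direction, *Tek* by little. Sequences are also given for *Cldn5*, which had the lowest adjusted p, and for *Clec14a*, the surface receptor gene that was higher. Each is written 5′ to 3′ on the strand of its gene. Capitals mark GGAAG or its complement CTTCC, a form of the site that ETS factors such as *Erg* and *Fli1* recognize.
*Tie1*, chr4:118489800-118490099, minus strand: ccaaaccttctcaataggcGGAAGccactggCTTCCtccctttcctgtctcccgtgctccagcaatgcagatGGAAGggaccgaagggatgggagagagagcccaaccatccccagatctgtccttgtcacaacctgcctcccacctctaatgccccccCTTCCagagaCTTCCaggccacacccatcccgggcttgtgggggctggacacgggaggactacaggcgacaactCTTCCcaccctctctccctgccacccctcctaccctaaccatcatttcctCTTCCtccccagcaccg
*Tek*, chr4:94739039-94739338, plus strand: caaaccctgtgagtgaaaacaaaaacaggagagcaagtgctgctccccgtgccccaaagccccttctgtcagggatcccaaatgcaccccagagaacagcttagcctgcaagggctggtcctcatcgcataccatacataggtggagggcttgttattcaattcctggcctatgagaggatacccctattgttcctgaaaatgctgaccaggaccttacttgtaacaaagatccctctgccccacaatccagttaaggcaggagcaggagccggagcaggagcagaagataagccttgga
*Cldn5*, chr16:18776597-18776896, plus strand: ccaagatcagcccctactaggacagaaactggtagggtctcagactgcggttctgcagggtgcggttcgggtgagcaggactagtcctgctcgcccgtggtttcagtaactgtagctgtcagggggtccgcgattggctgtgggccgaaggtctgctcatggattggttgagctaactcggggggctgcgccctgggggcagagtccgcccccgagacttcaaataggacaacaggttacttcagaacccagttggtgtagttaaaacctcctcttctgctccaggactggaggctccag
*Clec14a*, chr12:58269209-58269508, minus strand: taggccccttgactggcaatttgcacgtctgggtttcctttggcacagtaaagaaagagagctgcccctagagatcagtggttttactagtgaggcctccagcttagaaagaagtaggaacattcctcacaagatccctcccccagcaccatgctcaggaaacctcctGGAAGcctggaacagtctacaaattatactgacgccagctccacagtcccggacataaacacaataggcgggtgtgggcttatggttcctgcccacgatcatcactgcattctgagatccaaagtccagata

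GGAAG or CTTCC occurred 7 times in the *Tie1* promoter, 1 time in that of *Clec14a* and not at all in those of *Tek* and *Cldn5*. The count of *Tie1* was the highest of the 19 promoters, where *Apln* and 1 promoter of *Egfl7* came next with 4. As the genes were picked by their values, these counts are not evidence on their direction. Other forms of the ETS site were not counted. The shorter GGAA or its complement TTCC is also present in the *Tek* sequence, so these counts do not show that a promoter lacks an ETS site. Either strand of GGAAG was present in 14 of the 19 promoters of endothelial genes (73.7%) and in 74.3% of 13978 promoters of all tested genes. The SOX core ACAAT was present in 6 of the 19 (31.6%) against 21.0% of all. AGATAA, bound by GATA factors, was in 2 of the 19 (10.5%) against 6.7% of all, and TATAAA in 2 of the 19 against 7.8% of all. All motifs were searched on both strands, and none contains another, although neighbouring matches can share letters. A match describes the letters of this window and not a bound site.

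Ligands of the endothelial receptors were measured in the same cells. Of 14 tested vascular ligand genes, 2 fell and 1 rose past an adjusted p of 0.1 in edgeR, where 1.82% of all tested genes passed. Without overlap between genotypes, 5 were lower and 1 higher (19.1% and 19.2% of all tested genes). *Cxcl12*, the chemokine that guides endothelial and other cells through *Cxcr4*, fell from 540 and 602 CPM to 414 and 420.1 CPM (log2 fold change -0.45, SE 0.10, adjusted p = 0.0852 in edgeR). It did not pass without GCE/GCE replicate 1 (0.14) or GCE/GCE replicate 2 (0.172). *Wnt2* fell from 12.5 and 10.8 to 7.06 and 6.93 CPM (adjusted p = 0.0649 in edgeR and 0.00326 in DESeq2). Its log2 fold change was -0.84 to -0.63 with 1 sample left out. *Sema3e*, a repellent of sprouting endothelial cells, rose from 2.94 and 2.83 to 5.44 and 7.09 CPM (log2 fold change 1.12, SE 0.19). Its adjusted p was 0.0421 in edgeR and 0.000551 in DESeq2, and its log2 fold change was 0.91 to 1.29 with 1 sample left out. *Vegfa*, the ligand of *Flt1* and *Kdr*, had 199 and 192 CPM in GCE/+ cells against 222 and 193 CPM in GCE/GCE cells. *Vegfc*, the ligand of *Flt4*, had 23.9 and 21.8 against 18.9 and 16.0 CPM, without overlap (log2 fold change -0.39, SE 0.12, adjusted p = 0.246 in edgeR). The VEGF family genes *Vegfb*, *Figf* and *Pgf* overlapped between genotypes. For the Tie receptors, *Angpt1* had 38.9 and 45.5 against 43.2 and 54.1 CPM and *Angpt2* had 6.83 and 5.24 against 6.24 and 4.41 CPM. The further VEGF genes and these angiopoietins were picked for their role, with their values known. Like most endothelial genes, *Angpt2* was highest in GCE/+ replicate 1 and lowest in GCE/GCE replicate 2, and *Angpt1* was not.

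Of 15 genes for partner receptors and effectors, 1 rose and none fell past an adjusted p of 0.1 in edgeR (1.82% of all tested genes). The gene that rose was *Ephb4*, the receptor of ephrin-B2 on venous endothelium, with 165 and 168 CPM in GCE/+ cells against 258 and 261 CPM in GCE/GCE cells (log2 fold change 0.64, SE 0.08, adjusted p = 0.0203 in edgeR). Per kilobase, *Ephb4* had 41.2 CPM in GCE/+ cells, far above the 5.46 of *Cdh5*. Which of the sorted cells carried its transcripts was not tested. A further list of 30 endothelial genes had a median log2 fold change of -0.22, with 25 below 0 (49.1% of all tested genes). In edgeR 1 of them fell past an adjusted p of 0.1, *Stab1* (99.7 and 105 against 72.4 and 51.2 CPM). Its adjusted p was 0.0705 in edgeR and 0.000125 in DESeq2, and its log2 fold change was -1.01 to -0.50 with 1 sample left out. In this list 14 genes were lower and 4 higher without overlap between genotypes (19.1% and 19.2% of all tested genes), and the median log2 ratio of replicate 2 to replicate 1 was -0.17 in GCE/+ and -0.20 in GCE/GCE cells. *Stab1* is a scavenger receptor of sinusoidal endothelium and also of macrophages. The most abundant genes of this list included the ETS factors *Ets1* (94.7 and 102 against 111 and 108 CPM) and *Elk3* (88.5 and 93.4 against 103 and 103 CPM). Their log2 fold changes were 0.16 (SE 0.08) and 0.18 (SE 0.08), and neither passed an adjusted p of 0.1 in edgeR. *Mcam*, as abundant, overlapped between genotypes (97.8 and 100.2 against 102.1 and 88.6 CPM, log2 fold change -0.055, SE 0.09) and did not pass either. Per kilobase, *Ets1* and *Elk3* had 48.1 and 68.1 CPM in GCE/+ cells, next to 6.79 for *Fli1*. Of 4 tested lymphatic genes, 1 fell, *Lyve1*, a hyaluronan receptor that macrophages also carry (37.0 and 39.8 against 26.6 and 23.9 CPM, adjusted p = 0.0409 in edgeR). In edgeR none of 10 mural cell genes and none of 12 limb mesenchyme genes passed. With DESeq2, where 3.25% of all genes passed, the mural gene *Kcnj8* did (adjusted p = 0.0792). So did the limb mesenchyme genes *Dcn* (0.00111), *Col3a1* (0.0545), *Lum* (0.0695) and *Tbx4* (0.0588).

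Markers of other cell types moved across the same samples. All 16 macrophage genes were lower in both GCE/GCE samples without overlap (19.1% of all tested genes). Of these, 12 were past an adjusted p of 0.1 in edgeR (1.82% of all tested genes). The macrophage genes summed to 430 and 438 CPM in GCE/+ cells against 270.3 and 189 CPM in GCE/GCE cells. *Mrc1* fell from 98.1 and 103 to 63.4 and 50.2 CPM (adjusted p = 0.0275 in edgeR and 1.19e-07 in DESeq2). *Csf1r* fell from 60.7 and 67.2 to 41.4 and 24.1 CPM (adjusted p = 0.0959 in edgeR and 0.277 in DESeq2). Its log2 fold change was -1.41 to -0.63 with 1 sample left out. The megakaryocyte gene *Pf4* fell from 9.18 and 7.34 to 4.53 and 4.48 CPM (adjusted p = 0.0645 in edgeR and 0.00274 in DESeq2), 1 of 4 tested genes of that type. Its log2 fold change was -1.03 to -0.71 with 1 sample left out. The 11 chondrocyte genes were all higher in both GCE/GCE samples without overlap (19.2% of all tested genes), 3 past the threshold. They summed to 709 and 1110 CPM in GCE/+ cells against 1535 and 1688 CPM in GCE/GCE cells. *Sox9*, the factor that specifies cartilage, rose from 78.3 and 98.7 to 130.0 and 144 CPM (adjusted p = 0.0615 in edgeR). *Col2a1* had 359 and 571 against 790 and 879 CPM (adjusted p = 0.106 in edgeR). Its log2 fold change was 0.54 to 1.22 with 1 sample left out.

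Erythroid genes summed to 513 and 176 CPM in GCE/+ cells against 343 and 314 CPM in GCE/GCE cells, none of 8 past the threshold. The endothelial sum was highest in the sample in which the erythroid sum was highest and the chondrocyte sum lowest, GCE/+ replicate 1. It was lowest in the sample in which the macrophage sum was lowest and the chondrocyte sum highest, GCE/GCE replicate 2. The erythroid sum was lowest in GCE/+ replicate 2, where the endothelial sum was not the lowest. Most of the erythroid sum was *Hbb-y*, with 449 and 152 CPM in GCE/+ cells against 298 and 269 CPM in GCE/GCE cells. In the GCE/+ embryos the macrophage sums were 430 and 438 CPM and the endothelial sums 302 and 250.4 CPM. The part of these other cell types in the endothelial values was not tested. None of 8 myogenic, 6 Schwann cell or 7 epidermal genes passed.

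**Figure D4:**
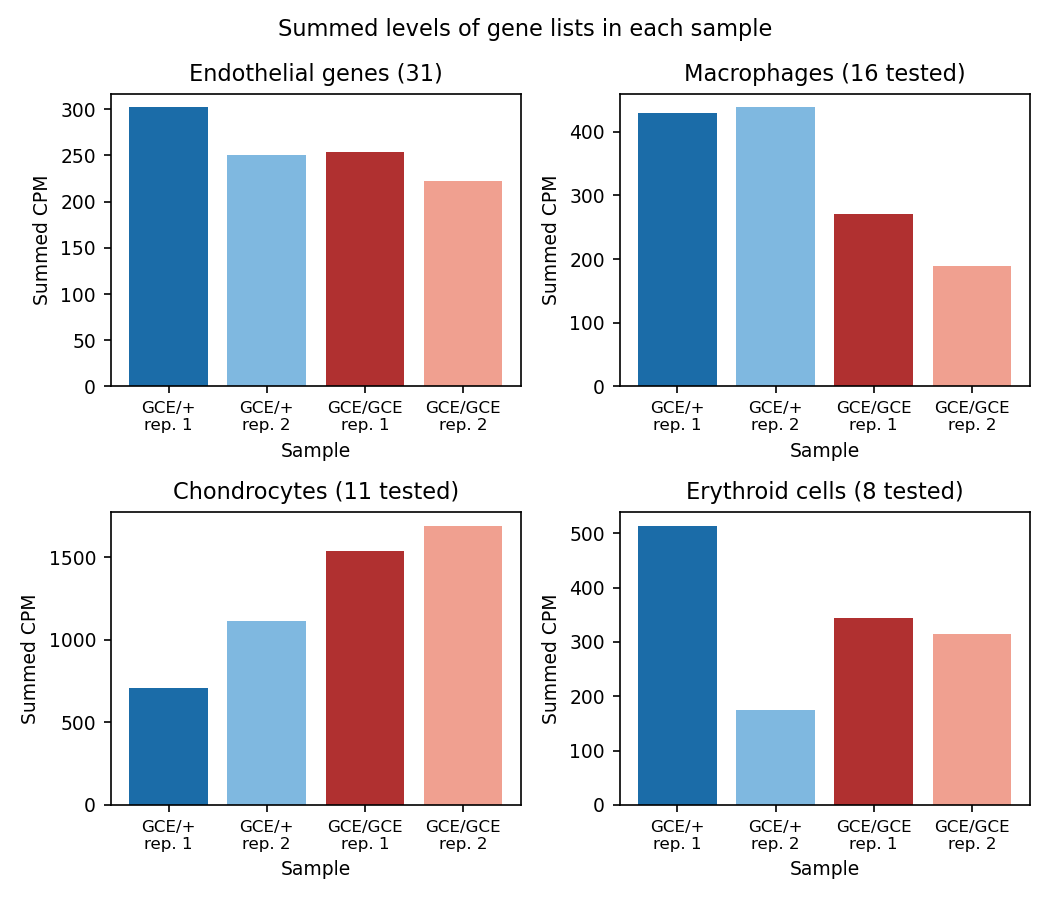
Summed CPM of the endothelial genes and of the tested macrophage, chondrocyte and erythroid genes in each of the 4 samples. The endothelial bars run from 302 CPM in GCE/+ replicate 1 to 223 CPM in GCE/GCE replicate 2 with the other 2 samples between, the macrophage bars are lower and the chondrocyte bars higher in both GCE/GCE samples.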

How the data were processed

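The authors used TopHat2, guided by UCSC gene models, to map paired-end reads to mm9, and counted fragments per gene with HTSeq in its strict intersection mode. They deposited raw counts, 1 column per sample, without normalization. Groups and replicate numbers came from the sample labels. Low counts were removed with filterByExpr, leaving 15645 genes. After TMM normalization, edgeR 4.0.16 (R 4.3.3) gave two-sided quasi-likelihood tests, adjusted by Benjamini-Hochberg and read at the study's threshold of 0.1. The SE was derived from the F statistic. DESeq2 1.42.0 was an alternative. Residual degrees of freedom were 2, so p-values rest largely on the prior (6.381 degrees of freedom). The edgeR and DESeq2 fits were tested on simulated data with the same variation for every gene and changes only in genes with many counts. That simulation gives no evidence on the endothelial genes. Ratios within a genotype have exact binomial intervals. Lengths are medians over GENCODE M21 transcripts (GRCm38), with 98.0% of symbols matched. The endothelial genes and all lists were chosen with earlier results of these data known, so they are not independent evidence. Every endothelial gene is named, and of the other lists the genes past the threshold or among the 3 highest, as examples. Deviations of samples with the same number correlated at -0.013 over 11180 genes.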

Additional observations from a re-analysis of the deposited data

How the results depend on the processing

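The median log2 fold change of the 31 endothelial genes was negative under each alternative for which it was computed (-0.48 to -0.42 with all 4 samples), and ranged from -0.63 to -0.23 when a sample was left out (without GCE/GCE replicate 1 and without GCE/+ replicate 1). The number of endothelial genes past an adjusted p of 0.1 ranged from 0 to 11 when a sample was left out, among 199 to 961 genes in all. In edgeR it was 0 of 285 called genes in all 4 samples and 3 of 502 with DESeq2. All genes called came to 127 with no filter on low counts and 130 at an adjusted p under 0.05. With no filter on low counts, *Cxcl12* (adjusted p = 0.141), *Wnt2* (0.105), *Stab1* (0.165), *Pf4* (0.112), *Sox9* (0.145) and *Csf1r* (0.197) did not pass in edgeR, and *Csf1r* did not with upper quartile normalization (0.111) or length offsets (0.113). The labels give the genotypes the same replicate numbers and do not say whether these pair the embryos. With the replicate number as a block, 290 genes and 0 endothelial genes passed, with a median of -0.45, and with offsets for transcript length and the block, 440 genes and 3 endothelial genes (*Cdh5*, *Plvap* and *Tie1*). Among other genes named, the block ended the call of *Cxcl12* (adjusted p = 0.112) and made one for *Col2a1* (0.0463). The legacy quasi-likelihood fit, added after seeing the data, called 279 genes and 0 endothelial genes. When a sample was left out, the log2 fold change turned sign for *Esam* (-0.75 to 0.027), *Emcn* (-0.41 to 0.076), *Eng* (-0.40 to 0.11), *Sox17* (-0.54 to 0.062), *Angpt2* (-0.46 to 0.043) and *Vegfa* (-0.027 to 0.18). Where the arm kept 1 sample, that sample is assumed to vary like the others. The variance then comes from the other genotype alone, so adjusted p-values with a sample left out are not comparable with those of all 4 samples. *Sox17* rests on 23 counts in its lowest sample, so depth limits its precision.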
